A study of Mus musculus with 4 samples.

Results

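The genes described here are Rptor, Mtor, Mlst8, Akt1s1, Deptor, Rictor, Tsc1, Tsc2, Rps6kb1 and Eif4ebp1, 10 genes that encode subunits of the mTOR complexes, their upstream inhibitors and 2 of their targets. They were chosen by name and not by a threshold on methylation values, though with earlier results of these data known. Methylated DNA was read from peaks of MeDIP-seq, in which an antibody to 5-methylcytosine pulls down methylated fragments for sequencing. Peaks of the 4 libraries were joined into merged regions where they overlapped, and a region belonged to a gene where it overlapped the gene body or the 2000 bp upstream. By this rule the 10 genes held 106 of the 186169 merged regions, and 17032 protein-coding genes together held 96715.

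Islets came from mice 8 weeks old on a C57BL/6 background, with 2 libraries per genotype. WT mice were Raptor lox/lox without Cre, and βRapKO mice were Raptor lox/lox with RipCre, a Cre recombinase under the rat insulin promoter, so both genotypes carried the floxed Raptor alleles and the WT mice were littermates. The methods give a mixed C57BL/6J:129/SvJ background for the Cre line. Whether islets of several mice were pooled per library, and which segment of the gene the loxP sites flank, are not given in the sources used here, so the peaks could not be used to check the deletion. Handpicked islets also hold cells other than beta cells, in which the insulin promoter is normally not active and Raptor would be retained. A change in the makeup of the islets and a change of methylation within cells cannot be told apart in these libraries. The labels do not say that the libraries came from separate animals, so p-values measure only the spread between these libraries. The tissue label could not be checked by marker expression, since the assay reads DNA.

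mTORC1 is a protein kinase complex that couples amino acids, growth factors and energy to protein synthesis and cell growth, and in beta cells it is known for its part in cell size, insulin production and beta cell mass. RAPTOR, the product of Rptor, brings substrates to the kinase mTOR. The TSC1-TSC2 complex holds mTORC1 inactive through the small GTPase RHEB, and S6 kinase and 4E-BP1 carry its output to translation. Methylation at CpG sites is usually low at CpG-rich gene starts and high within the bodies of transcribed genes, so peaks at both kinds of place were looked at.

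Libraries held between 25585533 and 31330751 tags (aligned reads) after removal of duplicates, and between 117638 and 151093 peaks. Of these tags 32.0% and 35.4% lay inside peaks in WT, against 29.2% and 30.99% in βRapKO. WT replicate 2 was the deepest library and had the most peaks. It had a peak in 83 of the 106 regions of the mTORC1 genes, against 63 in WT replicate 1, 64 in βRapKO replicate 1 and 71 in βRapKO replicate 2. Tags are known only where a peak was called, so counts were compared only over shared regions, those where each of the 4 libraries had a peak, and the absence of a peak says only that the caller's threshold was not passed.

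Peaks at the mTORC1 genes were shared between libraries about as often as elsewhere and lay away from the gene starts, and no difference in tags between the genotypes passed the test. Of the 106 regions 42 were shared, or 39.6%, beside 40.3% of all merged regions. A peak was called in both WT libraries and in neither βRapKO library at 4 regions, or 3.77%, where the background over all merged regions was 4.16%. The reverse pattern occurred at 2 regions, or 1.89%, with a background of 1.58%. Both shares lay near their backgrounds. Another 30 regions had a peak in 1 library alone, of which 11 were in WT replicate 2.

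**Figure D1:**
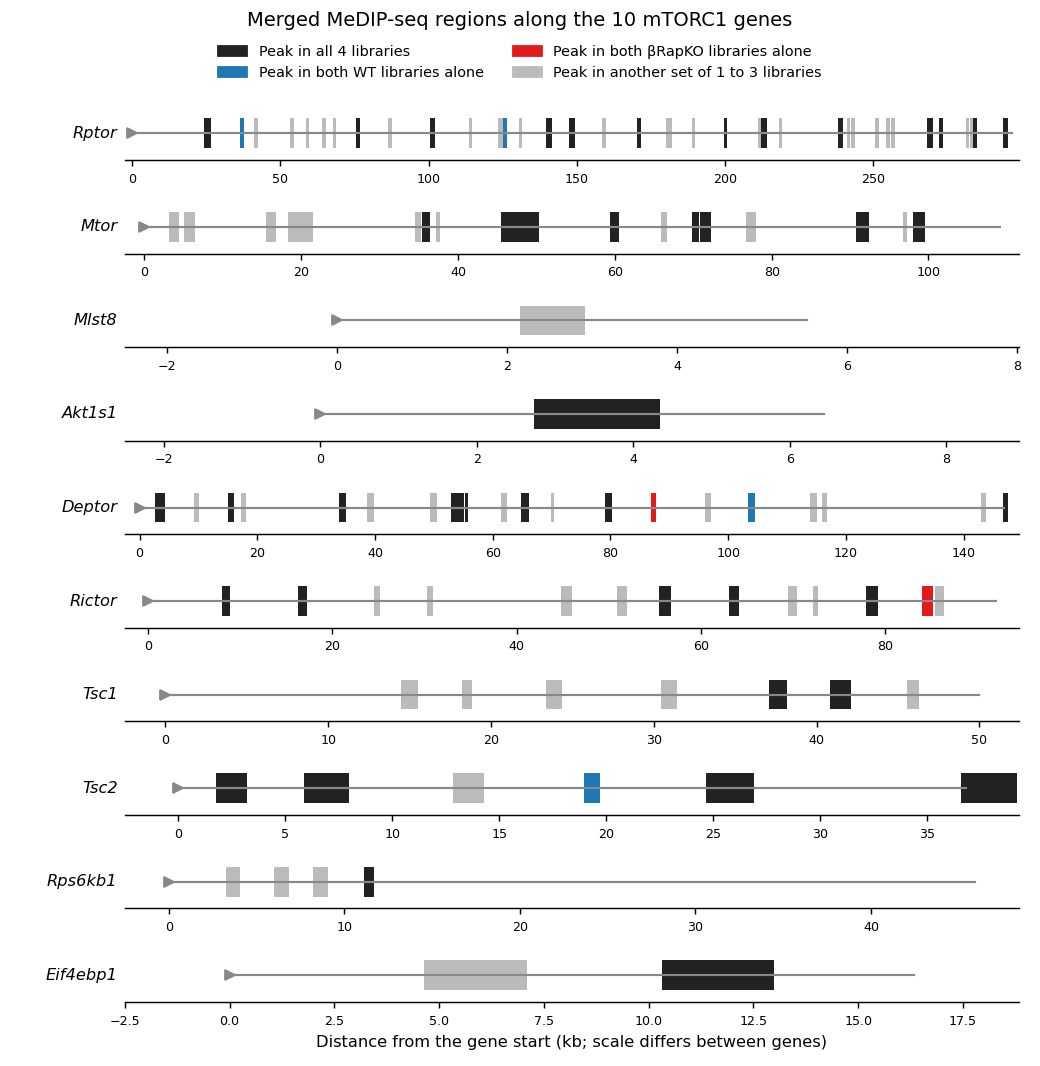
Merged regions along each of the 10 genes by distance from the gene start in kb (horizontal axis, drawn to each gene's own length), with the arrowhead at the start and the colour giving the libraries with a peak. The 42 black regions were shared, the 4 blue ones in both WT libraries alone and the 2 red ones in both βRapKO libraries alone, and no region lay at a gene start.

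None of the 10 genes had a region within 500 bp of its start, whereas 2816 of 21911 protein-coding genes had one, or 12.9%. The starts of the mTORC1 genes were rich in CpG sites, with a median of 68.5 sites and a range of 50 to 142 in the 1001 bp around the start, against a median of 41 over all genes. Among the 11183 genes with at least 40 sites in this window, 7.25% had a region there, and the count of 0 in 10 genes is to be read against that share. The nearest region to a start lay 1.77 kb away in Tsc2, and the farthest of the nearest regions lay 24.3 kb away in Rptor. Starts here are those of the GENCODE genes, and the RefSeq start used for sequences below differs at Akt1s1. Within the genes the regions were more closely spaced, with 12.8 regions per 100 kb against 9.11 over all protein-coding genes. Over the 77 other pathway genes described below the value was 10.6. All 10 mTORC1 genes held a region, whereas 17032 of the 21911 protein-coding genes did. Their median CpG density was 1.58 sites per 100 bp, close to 1.60 over all merged regions, and 47 of the 106 overlapped an exon of an annotated transcript, or 44.3% beside 39.2% of all regions at genes. Peak summits (the position with the most overlapping fragments) were at nearly the same place in each library, with a median span of 57.5 bp over the 42 regions and a span under 500 bp in 38.

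In these 42 regions the 4 libraries were compared by edgeR's quasi-likelihood test on tag counts, and p-values were adjusted by Benjamini-Hochberg over all 75052 shared regions. Levels are given as CPM, the tags in a region per 1000000 tags of the library, and log2 fold-changes are of βRapKO to WT. A call needed an FDR under 0.05 with more than a 1.5-fold change. By this rule 0 of the 42 regions were called lower and 0 higher, and over all regions the test called 0% lower and 0% higher. DESeq2 called 2 regions in the whole table, both higher, and none of these was among the 42. At an unadjusted p under 0.05, 1 region of the mTORC1 genes was lower, where the background was 3.93% of all regions, and 0 were higher, where it was 1.88%. The mean CPM of 1 region was more than 1.5-fold lower in βRapKO, beside 1.77% of all regions, and that of 0 regions was more than 1.5-fold higher, beside 1.29%.

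Small differences leaned to lower values in βRapKO, as they did over the genome. Of the 42 regions 26 had a log2 fold-change below 0 and 16 above it, and the share of 61.9% was near the 60.8% of all regions. The median log2 fold-change was -0.07, beside -0.06 over all regions, and the middle 50% of the values ran from -0.21 to 0.06 beside -0.20 to 0.09. Both βRapKO libraries lay below both WT libraries at 11 regions, or about the 25.3% found over all regions, and above them at 4, with a background of 11.6%. The direction of this lean depended on the scaling. When libraries were scaled by their tags inside peaks, 17 regions were lower and 25 higher, with 31.4% of all regions lower, and with TMM factors 21 were lower and 21 higher, with 49.4% of all regions lower. Without βRapKO replicate 2 the split was 33 lower and 9 higher, with 64.6% of all regions lower. Without βRapKO replicate 1 it was 23 lower and 19 higher, with 54.6% of all regions lower. Leaving out WT replicate 1 gave 26 lower and 16 higher, with 57.35% of all regions lower. Leaving out WT replicate 2 gave 27 lower and 15 higher, with 60.55% of all regions lower.

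**Figure D2:**
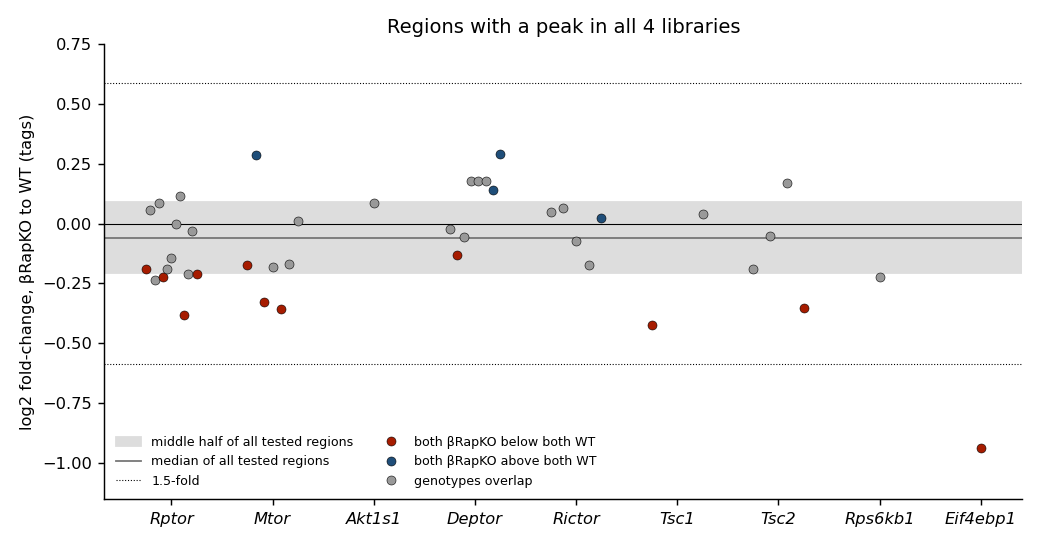
log2 fold-change of βRapKO to WT (vertical axis) of each of the 42 shared regions, grouped by gene and ordered by position, over the middle 50% (grey band) and the median (grey line) of all 75052 shared regions, with dotted lines at 1.5-fold. Only the Eif4ebp1 region, at -0.94, passed a dotted line, and the other 41 regions lay between -0.42 and 0.29.

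Tag sums over all such regions of a gene gave 1 value per gene and were tested the same way over 13351 genes. Of the 9 mTORC1 genes with a value 0 were called lower and 0 higher, with a background of 0% lower and 0% higher, and DESeq2 called 3 genes lower and 1 higher in the whole table, none of them among these 9. At an unadjusted p under 0.05 only Eif4ebp1 was lower, where the background was 7.3% of all genes, and 0 were higher, where it was 1.24%.

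Rptor, the gene targeted in βRapKO mice, spans chr11:119602905-119899576 (mm10, plus strand). It held 36 regions, 13 of them shared. The tag sum of these 13 was 39.1 CPM in WT replicate 1, 39.6 CPM in WT replicate 2, 33.9 CPM in βRapKO replicate 1 and 37.4 CPM in βRapKO replicate 2. The βRapKO libraries were the 2 lowest, but by little, and replicate 2 came close to WT. The sum had a log2 fold-change of -0.14 ± 0.08 (SE, n = 2 per genotype; edgeR quasi-likelihood test, Benjamini-Hochberg adjusted p = 0.637). Scaled by tags inside peaks it was 0.02. Of the 13 regions 10 were lower and 3 higher, with log2 fold-changes from -0.38 to 0.12.

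The strongest Rptor region, that is the shared region with the highest mean CPM, was found in intron 1 at chr11:119627175-119629543, 25.5 kb from the gene start. WT replicates 1 and 2 had 248 and 309 tags there, and βRapKO replicates 1 and 2 had 225 and 275. Values of 2 libraries follow in the order of replicates 1 and 2. As CPM these were 9.69 and 9.86 in WT against 7.70 and 9.43 in βRapKO, so the genotypes did not overlap, while the gap between the 2 βRapKO libraries was wider than that between the genotypes' nearest libraries. βRapKO differed from WT by a log2 fold-change of -0.19 ± 0.13 (SE, n = 2 per genotype; edgeR quasi-likelihood test, Benjamini-Hochberg adjusted p = 0.866). The peak was enriched over its local background 9.84-fold to 13.8-fold across the libraries. The 201 bases around its summit in WT replicate 2, chr11:119628648-119628848 on the plus strand, are printed because they show what this strongest peak of the 10 genes stands on, with CpG sites in capitals.

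Rptor intron 1 summit: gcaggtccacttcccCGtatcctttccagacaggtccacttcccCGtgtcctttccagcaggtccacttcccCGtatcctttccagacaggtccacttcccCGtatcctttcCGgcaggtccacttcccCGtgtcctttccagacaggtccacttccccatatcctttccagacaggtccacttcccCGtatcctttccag

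The stretch is a tandem repeat. The word CAGGTCCACTTCCCCGT, which was found as the longest to recur at least 6 times in this window, occurred 6 times there and 17 times in the region, all on the plus strand, over 531 bp at chr11:119628535-119629065. Neighbouring copies were most often 29 bp apart, and each holds 1 CpG site. The word, on either strand, was found in 2 of the 186169 merged regions, or 0.00107%. Repeat-masked sequence made up 46.0% of the region, against a median of 19.7% over the regions of the mTORC1 genes. How many reads of a tandem repeat can be placed uniquely was not tested.

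A peak was called at Rptor in both WT libraries and in neither βRapKO library at 2 regions. In intron 1, chr11:119639568-119640221 held 41 tags in WT replicate 1 and 28 in WT replicate 2. In intron 4, chr11:119728230-119729037 held 27 and 35 tags. All 4 counts were low, and the scores of the intron 4 peaks, 51.4 and 50.1 on the caller's scale (the negative log10 of p times 10), were just above the threshold of 50. No region of Rptor was called in both βRapKO libraries alone.

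Mtor, which encodes the kinase itself, held 16 regions, 7 of them shared. Their tag sum was 18.6 and 21.3 CPM in WT and 19.7 and 20.3 CPM in βRapKO, so the βRapKO values lay between the WT values. It gave a log2 fold-change of -0.0033 ± 0.099 (SE, n = 2 per genotype; edgeR quasi-likelihood test, Benjamini-Hochberg adjusted p = 0.997). Its strongest region, in intron 28 at chr4:148494035-148498940, also overlaps Angptl7, and a peak there cannot be given to either gene. The tag sum includes this region, so it is not a measure of Mtor alone, and a sum without the region was not tested. The intron 28 region held 5.82 and 8.04 CPM in WT and 8.14 and 8.84 CPM in βRapKO. Both βRapKO libraries were above both WT libraries, with 1 WT library close to them, and the log2 fold-change was 0.29 ± 0.17 (SE, n = 2 per genotype; edgeR quasi-likelihood test, Benjamini-Hochberg adjusted p = 0.863). The peaks there were also wider in βRapKO, at 4846 and 4906 bp against 3003 and 3458 bp. Per kb of peak the order turned, with 1.94 and 2.33 tags per kb per 1000000 tags in WT against 1.68 and 1.80 in βRapKO.

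Mlst8, whose product binds the kinase domain of mTOR in both complexes, had a single region over exons 7 to 8, chr17:24476157-24476925. It held 29 tags in WT replicate 2 and 32 in βRapKO replicate 1 and had no peak in the other libraries. With 1 library of each genotype it was not tested.

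Akt1s1 encodes PRAS40, an inhibitory subunit of mTORC1 that is released when AKT phosphorylates it. Its single region, at exon 2, chr7:44851717-44853331, was the most CpG-dense of the 106 regions, with 3.16 sites per 100 bp. It held 2.07 and 2.39 CPM in WT and 2.22 and 2.54 CPM in βRapKO. The genotypes overlapped, with a log2 fold-change of 0.09 ± 0.20 (SE, n = 2 per genotype; edgeR quasi-likelihood test, Benjamini-Hochberg adjusted p = 0.963).

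Deptor encodes the other inhibitory subunit, a direct binder of mTOR. It held 20 regions, 8 of them shared. Their tag sum was 15.2 and 14.4 CPM in WT and 14.4 and 16.8 CPM in βRapKO, so the genotypes overlapped, with a log2 fold-change of 0.08 ± 0.11 (SE, n = 2 per genotype; edgeR quasi-likelihood test, Benjamini-Hochberg adjusted p = 0.865). Of the 8 regions 5 were above 0 and 3 below. Its strongest region, in intron 3 at chr15:55165184-55167457, held 3.01 and 2.90 CPM in WT and 2.53 and 4.15 CPM in βRapKO, so the 2 βRapKO libraries lay on either side of WT. Deptor also had a region of each 1-genotype pattern. In intron 4, chr15:55199156-55200042 held 36 and 34 tags in the βRapKO libraries and no peak in WT. In intron 7, chr15:55215742-55216813 held 30 and 51 tags in the WT libraries and no peak in βRapKO. Within the same gene, then, the 2 regions showed opposite patterns.

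Rictor encodes the subunit that defines mTORC2, the sister complex that phosphorylates AKT. Of its 13 regions 5 were shared, with a tag sum of 8.48 and 8.46 CPM in WT and 8.62 and 8.05 CPM in βRapKO. The WT libraries lay between the βRapKO libraries, and the log2 fold-change was -0.02 ± 0.12 (SE, n = 2 per genotype; edgeR quasi-likelihood test, Benjamini-Hochberg adjusted p = 0.971). Its strongest region, at exon 31, chr15:6786285-6787584, was nearly level across the libraries, with 2.11 and 2.07 CPM in WT and 2.12 and 2.13 CPM in βRapKO. The log2 fold-change there was 0.02 ± 0.19 (SE, n = 2 per genotype; edgeR quasi-likelihood test, Benjamini-Hochberg adjusted p = 0.991). In intron 34, chr15:6792378-6793596 held 55 and 45 tags in the βRapKO libraries and no peak in WT, and the weaker of these peaks had a score of 50.1, just above the threshold.

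Rictor shows both ends of the pattern of CpG sites and peaks among these genes, so 2 of its sequences are given with CpG sites in capitals. The first is the 201 bases around the exon 31 summit in WT replicate 1, chr15:6786888-6787088, and the second the 250 bases before the RefSeq gene start, chr15:6708131-6708380, both on the plus strand.

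Rictor exon 31 summit: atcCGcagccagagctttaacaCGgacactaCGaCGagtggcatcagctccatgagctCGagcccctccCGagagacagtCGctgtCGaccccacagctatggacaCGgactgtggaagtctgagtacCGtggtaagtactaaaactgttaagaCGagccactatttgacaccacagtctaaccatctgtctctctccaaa

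Rictor before the start: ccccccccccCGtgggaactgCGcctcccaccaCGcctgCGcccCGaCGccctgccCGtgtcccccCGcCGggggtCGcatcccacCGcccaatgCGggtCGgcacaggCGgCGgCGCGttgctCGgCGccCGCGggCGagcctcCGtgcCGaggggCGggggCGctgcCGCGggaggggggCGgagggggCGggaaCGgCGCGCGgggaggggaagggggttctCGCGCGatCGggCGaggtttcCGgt

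The exon 31 stretch held 11 CpG sites and was called in every library, with an enrichment of 9.06-fold to 12.5-fold over its local background. The stretch before the start held 40 CpG sites, and the nearest region began 8.08 kb away. RefSeq sequence before the start (GRCm38.p6) was matched for 8 of the 10 genes, with 9 CpG sites for Rptor, 15 for Mlst8, 16 for Tsc1, 17 for Rps6kb1, 19 for Mtor, 23 for Akt1s1 and 24 for Tsc2, against a median of 6 over all 32851 entries.

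Tsc1 and Tsc2 encode the partners of the complex that restrains mTORC1. Tsc1 held 7 regions, of which 2 were shared. At exon 17, chr2:28678298-28679375 held 52 and 63 tags in WT and 44 and 44 tags in βRapKO. As CPM these were 2.03 and 2.01 in WT against 1.51 and 1.51 in βRapKO, so the libraries of a genotype were close together and the genotypes apart. Per kb of peak the genotypes overlapped, with 2.09 and 2.25 tags per kb per 1000000 tags in WT and 2.35 and 1.53 in βRapKO. Here the log2 fold-change was -0.42 ± 0.18 (SE, n = 2 per genotype), with an unadjusted p of 0.0522 and a Benjamini-Hochberg adjusted p of 0.858 by edgeR's quasi-likelihood test. This region falls outside the rule for naming regions and was chosen after its values were seen. The strongest region, in intron 20 at chr2:28682061-28683343, held 1.52 and 2.30 CPM in WT and 1.75 and 2.23 CPM in βRapKO, with both βRapKO values inside the WT range. The tag sum of Tsc1 had a log2 fold-change of -0.18 ± 0.18 (SE, n = 2 per genotype; edgeR quasi-likelihood test, Benjamini-Hochberg adjusted p = 0.7997).

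Tsc2 held 6 regions, 4 of them shared, and all 6 overlapped an exon. Their tag sum was 14.9 and 15.2 CPM in WT and 12.8 and 14.9 CPM in βRapKO, and the higher βRapKO library was level with the lower WT library. The difference was a log2 fold-change of -0.12 ± 0.11 (SE, n = 2 per genotype; edgeR quasi-likelihood test, Benjamini-Hochberg adjusted p = 0.781). This sum includes the strongest region, most of which lies outside the gene. The strongest region, chr17:24593421-24596016, belongs to Tsc2 only by its edge. Of its 2596 bp 201 bp lie in Tsc2, at exon 40, and the rest in Pkd1 and Gm24589, and only the peak of βRapKO replicate 2 reached Tsc2, so these tags are not a measure of Tsc2. The region held 6.41 and 8.11 CPM in WT and 5.78 and 6.99 CPM in βRapKO, so the genotypes overlapped. Summed over the other 3 shared regions, which the peaks of every library reached, the tags were 8.52 and 7.05 CPM in WT and 6.98 and 7.95 CPM in βRapKO, and the genotypes overlapped there too. Among the 42 shared regions 40 were reached by the peaks of all 4 libraries, the other exception being the region at the end of Deptor, which the peak of WT replicate 2 did not reach. At exon 20, chr17:24612906-24613674 held 31 and 48 tags in the WT libraries and no peak in βRapKO.

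Rps6kb1 encodes S6 kinase 1, which mTORC1 activates. It held 4 regions, all within 12 kb of the start, and 1 of them, in intron 3 at chr11:86533112-86533673, was shared. It held 1.95 and 1.60 CPM in WT and 1.37 and 1.65 CPM in βRapKO. The genotypes overlapped, with a log2 fold-change of -0.22 ± 0.21 (SE, n = 2 per genotype; edgeR quasi-likelihood test, Benjamini-Hochberg adjusted p = 0.894).

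**Figure D3:**
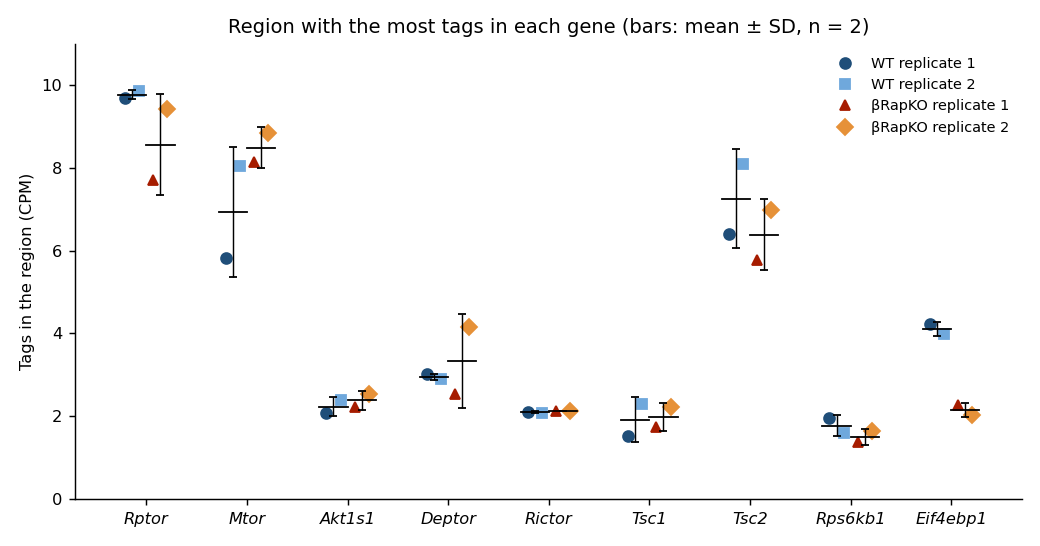
Tags in CPM (vertical axis) in each library for the strongest shared region of each of the 9 genes that had one, with bars for the mean ± SD of the 2 libraries per genotype. In Eif4ebp1 the WT libraries stood at 4.22 and 3.99 CPM and the βRapKO libraries at 2.26 and 2.02 CPM, and in the other genes the genotypes overlapped or lay close together. The region shown for Tsc2 lies mostly in Pkd1.

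Eif4ebp1, which encodes the translation repressor 4E-BP1 that mTORC1 phosphorylates, had the largest difference in tags among the 42 regions. Its region in intron 1, chr8:27270639-27273315, had 108 and 125 tags in WT against 66 and 59 in βRapKO. As CPM these were 4.22 and 3.99 in WT against 2.26 and 2.02 in βRapKO, a ratio of 0.521, with replicates of each genotype close together and the genotypes well apart. The log2 fold-change was -0.94 ± 0.18 (SE, n = 2 per genotype), with an unadjusted p of 0.000905 that ranked 173 of 75052 and did not pass the correction, at a Benjamini-Hochberg adjusted p of 0.393 by edgeR's quasi-likelihood test. The tag sum of the gene, which is this 1 region, ranked 26 of 13351 genes, with an adjusted p of 0.332 by the same test.

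The peaks behind these tags did not cover the same stretch. WT replicate 1 had a single peak of 2547 bp with its summit at its 5′ end. WT replicate 2 had 2 peaks, a 5′ peak with 57 tags and a 3′ peak with 68 tags. The βRapKO libraries had only a peak over the 3′ stretch, of 1353 and 1282 bp with 66 and 59 tags. So the 3′ peak held similar tags in WT replicate 2 and in the βRapKO libraries, and only the WT libraries had a call over the 5′ stretch. The tags of WT replicate 1 are not split between the stretches. The 5′ peak of WT replicate 2 had a score of 52.2, just above the threshold of 50, and tags of the βRapKO libraries in the 5′ stretch are not known. Per kb of peak the libraries were nearly level, with 1.66 and 1.85 tags per kb per 1000000 tags in WT and 1.67 and 1.58 in βRapKO. With this unit in the fit the log2 fold-change was -0.11 (edgeR quasi-likelihood test, Benjamini-Hochberg adjusted p = 0.811). Sequences around the 5′ summit of WT replicate 1, chr8:27270812-27271012, and the 3′ summit of βRapKO replicate 1, chr8:27272552-27272752, both on the plus strand, are printed with CpG sites in capitals because the calls of the genotypes differed between these 2 stretches.

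Eif4ebp1 5′ summit: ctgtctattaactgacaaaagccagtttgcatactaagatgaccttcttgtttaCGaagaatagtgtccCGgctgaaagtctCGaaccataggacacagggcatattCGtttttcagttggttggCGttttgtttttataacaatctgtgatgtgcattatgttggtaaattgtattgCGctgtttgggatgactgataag

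Eif4ebp1 3′ summit: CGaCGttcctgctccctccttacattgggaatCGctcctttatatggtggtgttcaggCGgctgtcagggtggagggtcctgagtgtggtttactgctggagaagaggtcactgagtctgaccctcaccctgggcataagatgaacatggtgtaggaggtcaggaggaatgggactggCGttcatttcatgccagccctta

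The 5′ stretch held 6 CpG sites in 201 bases and the 3′ stretch 5. The other region of Eif4ebp1, also in intron 1, chr8:27264979-27267418, was called in 1 library of each genotype, with 135 tags in WT replicate 2 and 94 in βRapKO replicate 2.

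**Figure D4:**
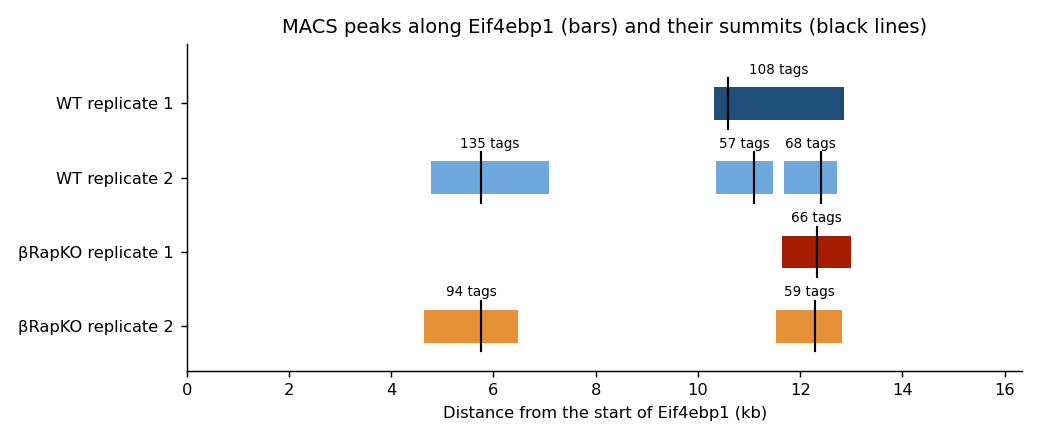
Peaks along Eif4ebp1 in each of the 4 libraries by distance from the gene start in kb (horizontal axis), with the summit of each peak as a black line and its tags above it. The 3′ stretch was covered in all 4 libraries, by a peak of its own with 68 tags in WT replicate 2 and 66 and 59 tags in βRapKO and by the single long peak in WT replicate 1, whereas the stretch before it was called in the WT libraries alone.

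Among the strongest regions of the genes, tags per kb of peak per 1000000 tags set Rptor and Rps6kb1 above the rest. They were between 3.27 and 5.22 in Rptor and 2.86 and 4.30 in Rps6kb1, and these ranges overlapped. The region at the edge of Tsc2, whose tags lie mostly in Pkd1, is left out here. In the other 6 genes every library lay between 1.42 and 2.75, and their ranges also overlapped one another. Over the 42 regions this unit was lower in βRapKO at 38 and higher at 4, and it was lower in 79.6% of all shared regions. Both βRapKO libraries lay below both WT libraries at 21 regions in this unit, where 41.1% of all regions showed this. The density depends on the called width, and the median peak in the 42 regions was 1192 and 1065 bp wide in the WT libraries and 1177 and 1200 bp in the βRapKO libraries.

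**Figure D5:**
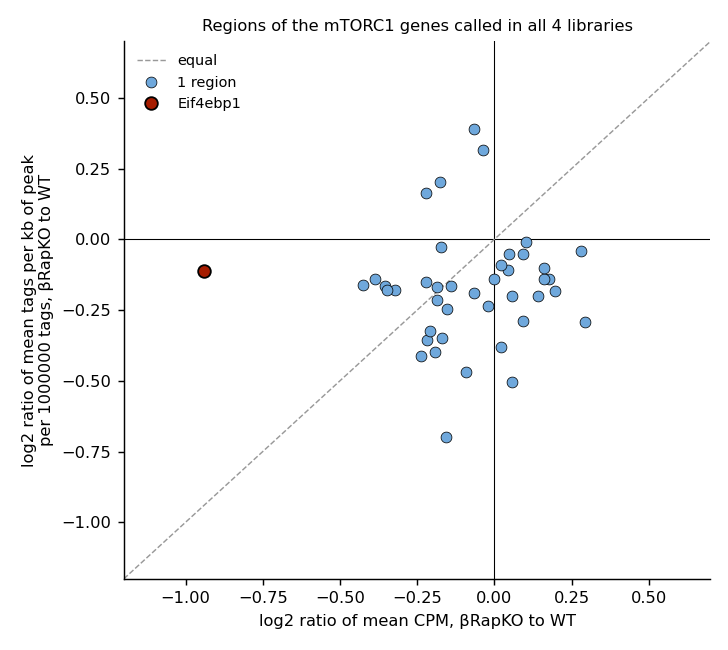
log2 ratio of βRapKO to WT for mean CPM (horizontal axis) and for mean tags per kb of peak per 1000000 tags (vertical axis) of the 42 regions, with the dashed line where both are equal. By density 38 of the 42 regions lay below 0, and the Eif4ebp1 region, in red, stood far to the left but close to the others on the vertical axis.

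Another 77 genes of the pathway were examined beside these 10, from Rag GTPases and amino acid sensors to the kinases and other regulators upstream of TSC and the targets of mTORC1 and S6 kinase. They held 379 regions that were not shared with the 10 genes, and 8 of the 77 had none. Of these 147 were shared, 15 were called in both WT libraries alone, or 3.96% beside the background of 4.16%, and 5 in both βRapKO libraries alone, or 1.32% beside 1.58%. Among the 147 regions 87 were lower and 60 higher, and 4 were more than 1.5-fold lower and 1 more than 1.5-fold higher, beside backgrounds of 1.77% and 1.29%. After adjustment the edgeR quasi-likelihood test called 0 of them, and DESeq2 0. At an unadjusted p under 0.05 there were 10 lower and 3 higher, where the backgrounds were 3.93% and 1.88%. Of 57 genes with a tag sum 0 were called, and at an unadjusted p under 0.05 the sums of Nprl2, Kptn, Cab39, Prr5 and Grb10 were lower and 0 were higher, where the backgrounds were 7.3% and 1.24% of all genes. These counts depended on the scaling and the tool. Scaled by tags inside peaks they were 0 lower and 1 higher, beside 179 and 654 of all genes. With TMM factors they were 2 and 0, beside 477 and 458, and with DESeq2 0 and 0, beside 136 and 116.

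The counts by group are of shared regions and are to be read against the 60.8% of all shared regions that were lower. The direction of that lean depended on the scaling, and the groups were not tested as sets. By group, the 18 regions of GATOR1, GATOR2 and KICSTOR, which pass the amino acid signal to the Rag GTPases, were 15 lower and 3 higher. The 49 regions of the kinases upstream of TSC, grouped with their regulatory subunits and other regulators, were 28 lower and 21 higher. The 33 regions of the targets were 21 lower and 12 higher. The 21 regions of the amino acid sensors, a group that also held Flcn, Fnip1 and Fnip2, were 9 lower and 12 higher. The 7 regions of the Rag GTPases and Ragulator, counted with Slc38a9, were 6 lower and 1 higher. The 3 of Rheb and its TSC partner were 0 lower and 3 higher, and the 16 of mTORC2 subunits and assembly factors 8 lower and 8 higher.

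The 1 region with a mean CPM more than 1.5-fold higher in βRapKO lay at Rps6ka1, which encodes a ribosomal S6 kinase of the RSK family, and there too the called widths differed. Its region over exons 18 to 22, chr4:133847005-133851444, held 105 and 159 tags in WT and 265 and 272 tags in βRapKO. The peaks were 1266 and 1287 bp wide in WT and 4423 and 4426 bp wide in βRapKO. The log2 fold-change was 0.997 ± 0.15 (SE, n = 2 per genotype; edgeR quasi-likelihood test, Benjamini-Hochberg adjusted p = 0.358), while per kb of peak the values were 3.24 and 3.94 in WT and 2.05 and 2.11 in βRapKO. Tags and density thus differed in opposite directions there.

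At Prr5, an mTORC2 subunit, chr15:84669072-84671807 held 4.73 and 5.49 CPM in WT and 2.64 and 4.08 CPM in βRapKO. This region spans the annotated start of the gene and lies upstream of its principal transcript. In intron 1 of Grb10, an adaptor that mTORC1 phosphorylates, chr11:12024968-12027155 held 3.79 and 3.93 CPM in WT and 1.403 and 3.08 CPM in βRapKO. In Nprl2, a GATOR1 subunit, chr9:107543094-107545459 held 4.03 and 2.94 CPM in WT and 2.09 and 2.54 CPM in βRapKO. The genotypes did not overlap at these 3 regions, but replicates of βRapKO lay far apart at Prr5 and Grb10 and those of WT at Nprl2, and none passed the adjustment, with adjusted p from 0.849 to 0.858 by edgeR's quasi-likelihood test. Called widths differed here too, with 984 bp in βRapKO replicate 1 against 1928 to 2161 bp in the other libraries at Grb10, and 1483 and 1502 bp in βRapKO against 2091 and 1764 bp in WT at Nprl2. At Prr5 the width was 1643 bp in βRapKO replicate 1 against 2512 to 2686 bp in the other libraries. Per kb of peak the genotypes overlapped at Nprl2, with 1.93 and 1.66 tags per kb per 1000000 tags in WT and 1.41 and 1.69 in βRapKO. In this unit they still did not overlap at Prr5, with 1.88 and 2.05 in WT and 1.60 and 1.52 in βRapKO. Nor did they at Grb10, with 1.75 and 2.04 in WT and 1.43 and 1.56 in βRapKO. In intron 2 of Slc38a9, a lysosomal arginine sensor, chr13:112670469-112672204 held 63 and 70 tags in the βRapKO libraries and no peak in WT. In Rhebl1, a relative of Rheb, chr15:98882045-98883321 held 53 and 60 tags in the WT libraries and no peak in βRapKO. That region lies inside the annotated gene, though upstream of its principal transcript.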

How the data were processed

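MeDIP-seq libraries of islet DNA from 2 WT and 2 βRapKO samples, grouped and numbered by the sample titles, were used. The authors aligned reads with Bowtie2 2.2.5 to mm10 (the submitters' notes also list mm9) and called peaks in each library with MACS, given as 0.14.2 in the submitters' notes and 1.4.2 in the file headers, using no control library, 1 tag per position and a p cutoff of 1e-05. For each peak the authors deposited a count of tags, not normalized, a score (the negative log10 of p times 10), and the fold enrichment over the local background as a ratio. Summit positions, deposited relative to the peak start, were also used. The last peak of every chromosome ended inside its GRCm38 length.

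Peaks overlapping by at least 1 bp were joined and assigned to GENCODE M21 protein-coding genes. Exon numbers follow the gene's principal transcript. Regions with a peak in all 4 libraries, and tag sums per gene, were tested with edgeR 4.0.16 (R 4.3.3; limma 3.58.1 and DESeq2 1.42.0 as alternatives) by the quasi-likelihood test, with tags after removal of duplicates as library size and no further scaling. Calls needed an FDR under 0.05 with more than a 1.5-fold change. The common dispersion was 0.015 for regions and 0.0093 for genes. The scripts were tested on simulated data. An exact permutation test of 2 libraries against 2 cannot give a p below 0.333 and was not used. Single counts carry no interval here, as replicates differed by more than counting error.

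The genes, the pathway lists and the tests were chosen with earlier results of these data known. Named in full were the region with the most tags of each gene, regions called in 1 genotype alone or more than 1.5-fold apart, and, of the pathway genes, the 6 with the highest CPM among such regions. Alternatives covered library size, normalization, tool, unit, count filter, peak threshold, joining rule, gene window, replicate block and left-out libraries. Gene expression was not analysed here.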

Additional observations from a re-analysis of the deposited data

How the results depend on the processing

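No mTORC1 gene or region was called under any alternative. Over the 42 regions the median log2 fold-change turned to 0.091 when libraries were scaled by their tags inside peaks, and then 3 regions had both βRapKO libraries below both WT libraries and 12 above, beside 8.03% and 27.9% of all regions, and 1 gene in the whole table was called higher. With tags before removal of duplicates 2 regions lay above, beside 9.91% of all regions. DESeq2 called 2 regions higher, 3 genes lower and 1 higher. Per kb of peak 71 genes were called lower, 1 of them in the pathway list (Sec13), and 21 of the 42 regions lay below and 1 above, beside 41.1% and 4.54% of all regions. With at least 50 tags in every library, which kept 21 regions, 6 lay below and 2 above, beside 30.1% and 9.07%. With peaks of a score of at least 100, which left 11 regions with a peak in all 4 libraries, 4 lay below and 1 above, beside 28.6% and 10.4%. With these peaks 0 regions of the mTORC1 genes were over 1.5-fold lower, beside 0.885% of all regions, and 0 were called in both βRapKO libraries alone. Of the pathway regions 0 were over 1.5-fold lower and 3 were called in both βRapKO libraries alone. The share of all regions called in both βRapKO libraries alone was not worked out for these peaks. Leaving out 1 library gave 0 to 6 genes called lower in the whole table, 2 without βRapKO replicate 1 and 6 without βRapKO replicate 2.

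Whether the replicate numbers pair the samples is not known, as the sample titles give only the numbers. Same-numbered libraries deviated together with a correlation of 0.05 over regions. With 2 libraries per genotype this value cannot decide whether the samples were paired. With the replicate number as a block 3 genes were called lower and 1 higher, none of them an mTORC1 gene, and the tag sum of Mtor had a log2 fold-change of 0.00026.

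Several single log2 fold-changes changed sign, and none of these passed the test. Scaled by tags inside peaks the tag sums were 0.017 for Rptor, 0.163 for Mtor, 0.142 for Rictor and 0.041 for Tsc2. For Mtor and Rictor they were 0.0849 and 0.0678 with TMM and 0.0841 and 0.0665 with DESeq2, and limma gave 0.0019 for Mtor. With tags before removal of duplicates the strongest Rictor region was at -0.0024. Per kb of peak the strongest regions were at -0.302 for Mtor, -0.0566 for Akt1s1, -0.129 for Deptor, -0.353 for Rictor and -0.519 for Tsc1, and the tag sums at -0.0566 for Akt1s1 and -0.166 for Deptor. With stricter peaks the sums were -0.0399 for Deptor and 0.0409 for Rictor. With 1 library left out, values ran from -0.0105 to 0.2001 for Akt1s1, -0.2098 to 0.381 for the strongest Tsc1 region, -0.222 to 0.489 for the strongest Deptor region, -0.0357 to 0.185 for the Deptor sum, -0.0724 to 0.0261 for the Rictor sum and -0.0946 to 0.099 for the Mtor sum. The cause of these changes was not tested. The Eif4ebp1 region stayed lower under all 13 alternatives that gave a value, from -1.02 to -0.11, and the stricter peaks left it without a value. With the 2 libraries per genotype, and tags unknown outside peaks, smaller differences could not be resolved.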
